A study of Homo sapiens with 4 samples.

Results

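The translation initiation and elongation factors are the proteins that load a ribosome onto an mRNA, find the start codon, lengthen the peptide and release it. A list of 49 such genes was followed in polyadenylated RNA of cells with and without targeting of TXNDC9 (thioredoxin domain containing protein 9). The cells are labelled HepG2, the established human hepatoma line, although the hepatoma markers looked up, given below, were under 1 FPKM. Members were taken by gene symbol from the 57979 lines of the expression table that held values. All 49 were found, each on 1 line, and all 49 passed the filter of a mean above 1 FPKM that left 13246 genes for testing. FPKM, a level in fragments, is scaled to transcript length and to the number of fragments mapped in the library. The list was not chosen from measured values of these libraries, although earlier results of the same data were known when it was drawn up.

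Wild-type HepG2 cells gave 2 libraries and HepG2 cells carrying a CRISPR-Cas9 knockout of TXNDC9 gave 2, all grown in the same serum-containing medium. The guides, directed at the first exon, were delivered in a lentiviral Cas9 vector. For the protein blots the study describes HepG2 cells sorted for infection with Cas9 and guide or with the empty vector, and it does not say whether the sequenced cells were those, whether they were 1 clone, or which guide they carried. The study speaks of independent experiments beside some RNA-seq values, but the number it gives is not that of the libraries here, and the labels do not tie the libraries to separate cultures, so the p-values measure only the spread between these libraries. Library depth is unknown, since FPKM values are no counts. They summed to between 535973 and 568279 in the knockout libraries and to between 805816 and 971102 in the wild-type libraries. The 8 markers of hepatoma cells that were looked up, from ALB (albumin) and AFP to HNF4A, were all under 1 FPKM in every library, with a highest value of 0.449 FPKM for AFP, and APOA1 was listed at 0 throughout. They summed to 0.351 and 0.716 FPKM without the knockout and to 0.0479 and 0.121 FPKM with it, and their part in the results was not tested. The libraries therefore lacked the defining liver transcripts of the labelled cell line, and they are called HepG2 here only because they are labelled so. Among the markers of other cell types COL1A1, PDGFRB and CD68 were present, whereas CD3E and COL1A2 were listed at 0 in all libraries. COL1A1 was at 31.5 and 22.8 FPKM in wild-type against 20.7 and 17.5 FPKM, PDGFRB at 1.08 and 0.735 FPKM against 3.004 and 2.617 FPKM, and CD68 at 3.38 and 5.16 FPKM against 5.77 and 6.90 FPKM. PTPRC, PECAM1 and VWF reached at most 0.261 FPKM, and the part of these markers in the results was not tested. TXNDC9 itself was at 35.1 and 37.3 FPKM in wild-type and at 21.9 and 27.6 FPKM in knockout libraries. Its knockout values lay below both wild-type values, with a log2 fold change of −0.55 (standard error 0.14, limma adjusted p = 0.0145 by Benjamini-Hochberg), which did not reach the call threshold. By western blot the study reports significantly reduced TXNDC9 in cells with Cas9 and guide. That is a measure of protein, which these mRNA values do not give.

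In eukaryotic cells, initiation begins when eIF2 carries the initiator tRNA to the small ribosomal subunit together with eIF1, eIF1A, eIF5 and the large scaffold eIF3. The cap-binding complex eIF4F, made of eIF4E, eIF4G and the helicase eIF4A, recruits the mRNA and joins its cap to the poly(A) tail through the poly(A) binding protein. Elongation is driven by the GTPases eEF1A and eEF2, and many of these genes are transcribed under the control of MYC and translated under the control of mTOR.

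Translation factor mRNAs were lower in the knockout libraries more often than they were higher in FPKM (the reverse in TPM, a rescaling given with the medians). The largest falls before correction for transcript length and GC content were those of EEF1D, EIF4EBP1 and EIF3G. After that correction, given below with its limits, EIF3M (−2.20) and EIF3F (−2.01) fell most on the log2 scale, and EIF4EBP1 and EIF3G were under 2-fold. Calls needed a limma adjusted p under 0.01 (log2(FPKM + 0.1), Benjamini-Hochberg over 13246 genes) together with a difference of at least 2-fold. Of the 49 members, 13 (26.5%) were called lower, against 15.3% of all tested genes, and 3 (6.12%) were called higher, against 14.2%. Without the minimum fold change, 21 members were lower and 8 higher at an adjusted p under 0.01 in limma, where 27.1% and 23.7% of all genes were. Both knockout values lay below both wild-type values for 33 members (67.3%, against 45.9% of all tested genes) and above them for 14 (28.6%, against 40.1%). In EIF2S1 and EEF1A1 the groups overlapped. Leaving out a library leaves 1 residual degree of freedom. Then 7 members were called lower and 1 higher without wild-type replicate 2, and 0 and 0 without either knockout library.

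The median log2 fold change of the members was −0.49, and that of all tested genes was −0.09. Rescaling every library to the same sum (TPM, a share of all transcripts) moved the median of all genes up by 0.67, to 0.59, and that of the members to 0.19. Relative to the median of all genes the members stood at −0.40 in FPKM and at −0.39 in TPM. Counts moved with the scale: in TPM 2 members (EEF1D and EIF4EBP1) were called lower and 13 higher, against 3.37% and 33.1% of all genes. With libraries centred on their medians, 14 members were lower (19.6% of all genes) and 2 higher (11%). All 16 called members kept the same side of the all-gene median under FPKM, TPM and median centring. These scalings apply a single factor to each library, so every gene moves nearly as the all-gene median does. That result, and the closeness of −0.40 and −0.39, therefore follow from the arithmetic and are no test of stability. Abundance moved with the calls too. Among the 1232 tested genes with a mean above 100 FPKM, 39.4% were called lower and 1.70% higher, and their median difference was −0.83 on the log2 scale. The 33 members above that level, a cut chosen after seeing the data, had 33.3% called lower and a median of −0.71, so their share of falls was not above that of all genes at such levels. In bulk RNA, fewer cells of a kind and less RNA in each cell cannot be told apart.

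**Figure D1:**
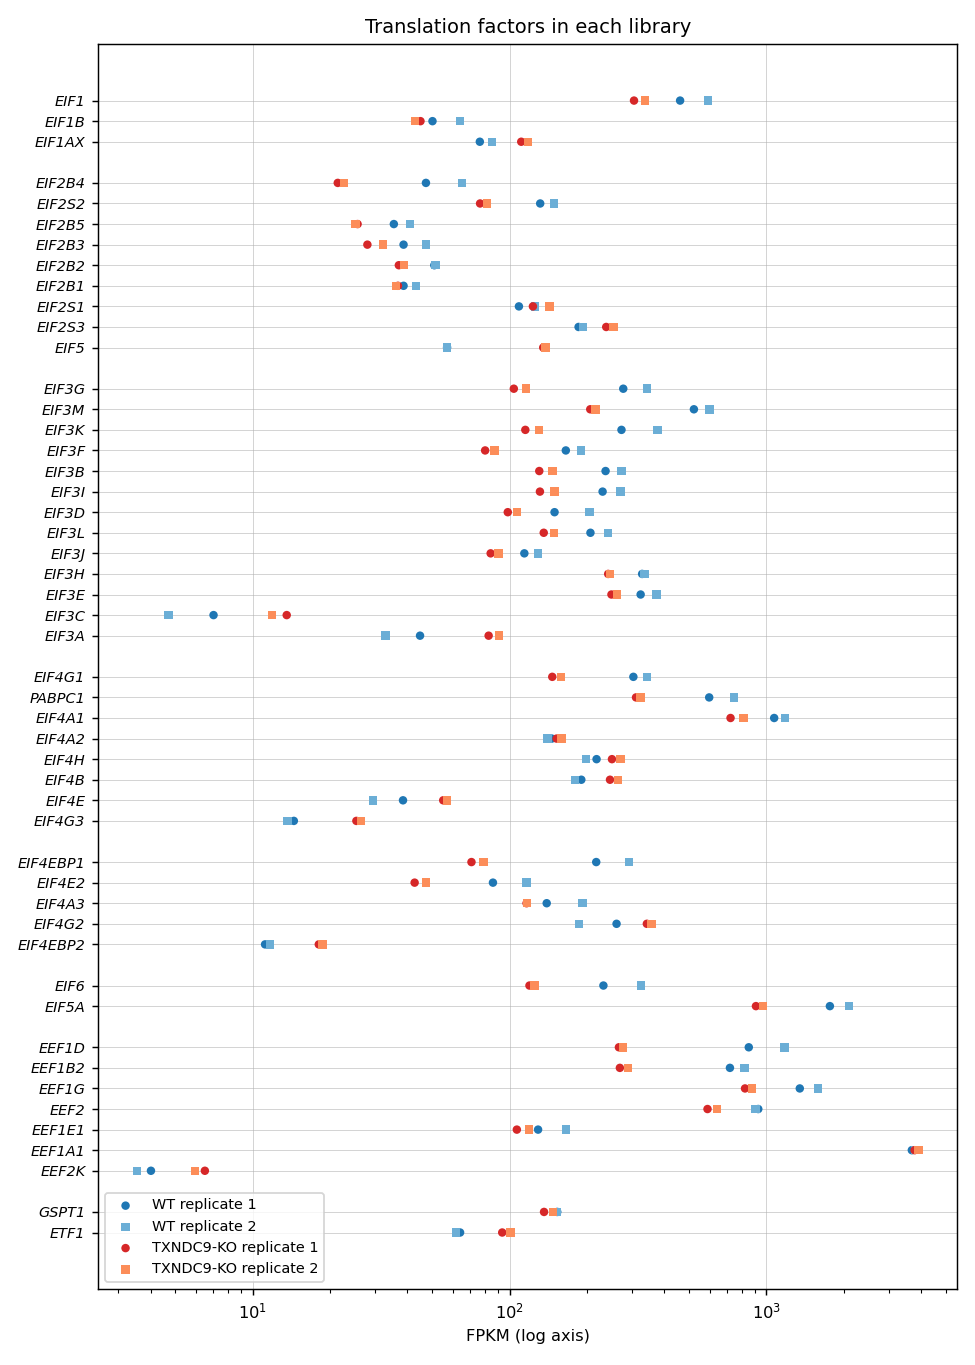
FPKM of the 49 translation factors in each library on a log axis, grouped by role and ordered by log2 fold change within a role, with circles for replicate 1 and squares for replicate 2. EEF1D, EEF1B2 and EIF4EBP1 have both knockout values far to the left of the wild-type values, EIF5 and EIF3A have them to the right, and the 4 EEF1A1 values lie between 3680 and 3902 FPKM.

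Elongation factors held the largest fall of the list before correction for length and GC content. EEF1D, the delta subunit of the complex that recharges eEF1A with GTP, was at 853 and 1175 FPKM in wild-type and at 266 and 277 FPKM in knockout libraries. The mean knockout level was 26.8% of the wild-type mean, without overlap of the groups, and the wild-type replicates differed more from each other than the knockout replicates did. EEF1D fell by 1.88 on the log2 scale (standard error 0.19, limma adjusted p = 0.000755). EEF1B2, the beta subunit that carries the same exchange activity, was at 721 and 822 FPKM against 269 and 289 FPKM. It fell by 1.47 on the log2 scale (standard error 0.14, limma adjusted p = 0.000711), again with no overlap of the groups. EEF1G, the gamma subunit that holds the exchange complex together, was at 1348 and 1590 FPKM against 825 and 877 FPKM. Its log2 fold change of −0.78 had a limma adjusted p of 0.00933 but was under 2-fold.

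The main mRNA for the substrate of that complex was not called. EEF1A1, which brings aminoacyl-tRNA to the ribosome and was the most abundant member, was at 3680 and 3799 FPKM in wild-type and at 3772 and 3902 FPKM in knockout libraries. Its log2 fold change was 0.04 with a 95% interval from −0.49 to 0.57 (limma adjusted p = 0.886), and the groups overlapped. EEF1A1 made up 21.2% and 19.4% of the summed FPKM of all members in the wild-type libraries and 30.3% and 29.5% in the knockout libraries. Ratios inside a library do not depend on how the library was scaled. The ratio of EEF1A1 to EEF1B2 was 5.11 and 4.62 in wild-type and 14.04 and 13.52 in knockout libraries. Against EEF1D it went from 4.31 and 3.23 to 14.2 and 14.1, and against EEF1G from 2.73 and 2.39 to 4.57 and 4.45. These 3 ratios were chosen after the values were seen. After each library was corrected by a loess curve on length and GC content of the transcript, their log2 changes went from 1.504 to 0.73 for EEF1B2, from 1.92 to 0.68 for EEF1D and from 0.82 to −0.18 for EEF1G, so the last turned its sign. EEF1A1 has 49 named pseudogenes in the annotation and EEF1D and EEF1B2 have 8 each, and reads shared with them can be miscounted. The 39 pseudogenes of EEF1A1 in the table summed to between 3.35 and 7.60 FPKM in a library. EEF1A2, a less abundant eEF1A gene that is not a member, was at 12.7 and 19.8 FPKM in wild-type and at 6.67 and 6.67 FPKM in knockout libraries. It was called lower (log2 fold change −1.23, limma adjusted p = 0.00374). After the loess correction EEF1A2 was at −0.30 and was no longer called, and in TPM it was at −0.56.

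EEF2, the factor that moves the ribosome along the mRNA, was at 929 and 907 FPKM against 589 and 643 FPKM, a log2 fold change of −0.58 (0.10 in TPM, limma adjusted p = 0.0159). Its inhibitory kinase EEF2K was at 4.02 and 3.55 FPKM against 6.51 and 5.96 FPKM, with a log2 fold change of 0.71 (limma adjusted p = 0.00569). Neither was called, and the differences had opposite signs in FPKM. EEF1E1, a scaffold protein of the tRNA synthetase complex in spite of its name, was at 129 and 166 FPKM against 107 and 119 FPKM and was not called (limma adjusted p = 0.0755).

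**Figure D2:**
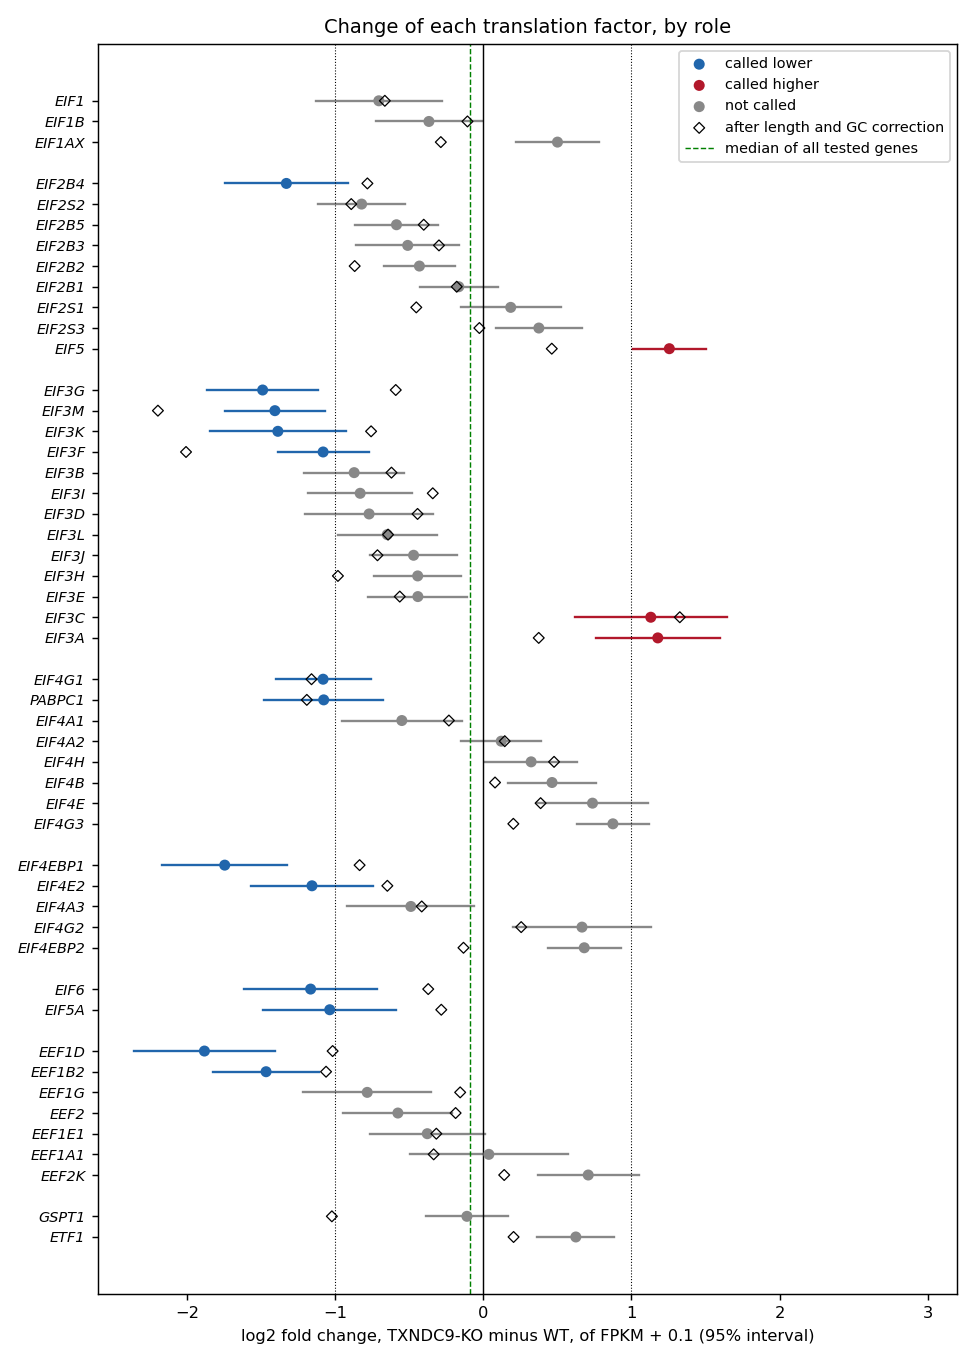
Log2 fold change of log2(FPKM + 0.1), knockout minus wild-type, of each translation factor with its 95% interval from limma, in blue for the 13 called lower, red for the 3 called higher and grey for the 33 not called. Open diamonds give the change after each library was corrected for transcript length and GC content, dotted lines mark 2-fold, and the dashed line marks the median of all tested genes at −0.09. The diamonds of EIF3G, EIF5A, EIF6 and EIF5 lie nearer 0 than their circles, and those of EIF3M, EIF3F and GSPT1 lie further below 0.

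The eIF3 complex, the scaffold on the small subunit that keeps the ribosomal subunits apart and gathers the other factors, had calls in both directions. Of its 13 subunits, EIF3G, EIF3M, EIF3K and EIF3F (4) were called lower and EIF3A and EIF3C (2) higher, against 15.3% and 14.2% of all tested genes. The median log2 fold change of the subunits was −0.77. In TPM the median was −0.09, and relative to all genes, a difference that rescaling hardly moves, it was −0.68 in both scales. EIF3G, an RNA-binding subunit with a role in scanning, was at 277 and 343 FPKM in wild-type and at 104 and 116 FPKM in knockout libraries. It fell by 1.49 on the log2 scale (standard error 0.15, limma adjusted p = 0.000743). EIF3M was at 522 and 599 FPKM against 206 and 216 FPKM, and it fell by 1.41 on the log2 scale (standard error 0.14, limma adjusted p = 0.000692). Both subunits stood at 35.4% and 37.6% of their wild-type level, with knockout replicates close together.

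EIF3K, at 273 and 376 FPKM against 115 and 130.2 FPKM, fell by 1.39 on the log2 scale (limma adjusted p = 0.00153). EIF3F, at 166 and 190 FPKM against 80.3 and 87.2 FPKM, fell by 1.08 (limma adjusted p = 0.000998). EIF3B, the subunit with an RNA recognition motif whose locus the study probed for MYC binding, lies on chromosome 7 of hg38 from 2354086 to 2380745. It was at 236 and 272 FPKM against 130 and 147 FPKM, with both knockout values below both wild-type values. Its log2 fold change of −0.87 (standard error 0.14, limma adjusted p = 0.00256) was short of 2-fold. The other 6 subunits that were not called were EIF3I, EIF3D, EIF3L, EIF3J, EIF3H and EIF3E. Their log2 fold changes ran from −0.83 (EIF3I) to −0.44 (EIF3E). All 6 had both knockout values below both wild-type values, as 45.9% of all tested genes did. EIF3E, EIF3H, EIF3J and EIF3L were above 0 in TPM. EIF3E and EIF3H, had the highest mean levels of the subunits in knockout libraries, whereas EIF3M had the highest in wild-type libraries.

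EIF3A, the largest subunit and the backbone of the complex, was at 44.8 and 32.8 FPKM in wild-type and at 82.9 and 91.1 FPKM in knockout libraries. It rose by 1.18 on the log2 scale (standard error 0.17, limma adjusted p = 0.00194). EIF3C, another core subunit, was at 7.04 and 4.69 FPKM against 13.6 and 11.9 FPKM, a rise of 1.13 (standard error 0.21, limma adjusted p = 0.00459). Its level was far under that of every other subunit. EIF3C has a near-identical copy, EIF3CL, listed at 0.0585 to 0.343 FPKM in the 4 libraries, so reads that match both may be missing from both values, and EIF3C is uncertain.

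Subunits of 1 complex can be compared inside each library, where scaling has no effect. Relative to the median eIF3 subunit, the log2 level of EIF3A was −2.36 and −3.04 in the wild-type libraries and −0.47 and −0.51 in the knockout libraries. With EIF3C left out, the highest subunit exceeded the lowest 11.6 and 18.2 times in wild-type and 3.10 and 3.01 times in knockout libraries, and the standard deviation of the log2 levels over the 12 subunits went from 0.90 and 1.06 to 0.58 and 0.55. With EIF3A left out as well, the same ratios were 4.57 and 4.65 against 3.10 and 3.01, and the standard deviations were 0.61 and 0.59 against 0.57 and 0.54, so most of that narrowing was in EIF3A. Trends with transcript length and GC content do not cancel inside a library, and these levels are not corrected for them. The canonical transcript of EIF3A has 6659 nt, and its log2 fold change went from 1.18 to 0.37 after the loess correction.

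**Figure D3:**
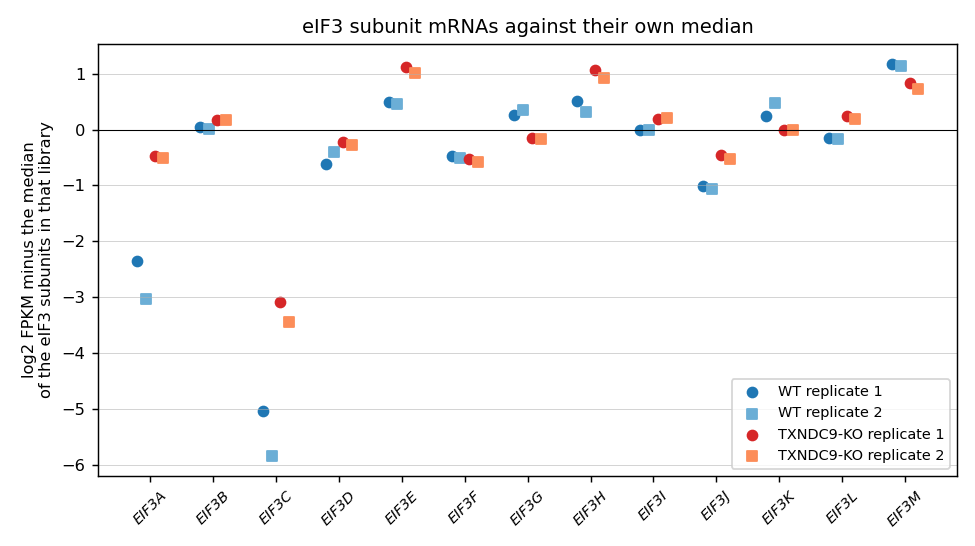
Log2 FPKM of each eIF3 subunit minus the median of the 13 subunits in the same library. EIF3A moves from −2.36 and −3.04 in wild-type to −0.47 and −0.51 in knockout libraries, EIF3C stays lowest in all 4, and EIF3G and EIF3K move from above the median to at or under it.

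Among the factors around initiator tRNA, EIF5 rose and EIF2B4 fell, and no subunit of eIF2 was called. EIF5, which makes eIF2 hydrolyse its GTP at the start codon, was at 57.1 FPKM in each wild-type library, and the knockout libraries held 135 and 138 FPKM. Before correction for length and GC content it had the largest rise of the list, 1.26 on the log2 scale (standard error 0.10, limma adjusted p = 0.000538). Of the called members its replicates were the closest together. EIF2B4, the delta subunit of the exchange factor eIF2B, was at 47.2 and 65.2 FPKM against 21.4 and 22.6 FPKM, and it fell by 1.33 on the log2 scale (standard error 0.17, limma adjusted p = 0.00131). The other 4 eIF2B subunits also had both knockout values below both wild-type values, as 45.9% of all tested genes did. Their log2 fold changes, from −0.59 (EIF2B5) to −0.17 (EIF2B1), were not called. In TPM those 4 were between 0.09 and 0.51.

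The 3 subunits of eIF2 itself had log2 fold changes of both signs. EIF2S2, the beta subunit, was at 132 and 149 FPKM against 76.7 and 81.6 FPKM, with a log2 fold change of −0.82 (limma adjusted p = 0.00192) that was under 2-fold. EIF2S3, the GTP-binding gamma subunit, was at 186 and 193 FPKM against 238 and 254 FPKM, with a log2 fold change of 0.37 (limma adjusted p = 0.0315). EIF2S1, the alpha subunit whose phosphorylation stops initiation under stress, overlapped between the groups, at 109 and 125 FPKM against 123 and 143 FPKM. Among the scanning factors, EIF1, which guards start codon choice, was at 461 and 592 FPKM against 305 and 337 FPKM (log2 fold change −0.71, limma adjusted p = 0.0128). Its relative EIF1B was at 50.1 and 64.0 FPKM against 44.98 and 42.81 FPKM. EIF1AX, the X-linked gene of eIF1A, was at 76.6 and 85.3 FPKM against 111 and 118 FPKM, a log2 fold change of 0.50 (limma adjusted p = 0.0102). None of these scanning factors was called.

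At the mRNA cap, the scaffold and the poly(A) binding protein fell. EIF4G1, the main scaffold of eIF4F, was at 303 and 343 FPKM in wild-type and at 147 and 158 FPKM in knockout libraries, and it fell by 1.08 on the log2 scale (standard error 0.13, limma adjusted p = 0.00111). PABPC1 was at 598 and 748 FPKM against 311 and 323 FPKM, and also fell by 1.08 (standard error 0.16, limma adjusted p = 0.00224). Of the 8 genes of this role these were the 2 that were called, where 15.3% of all tested genes were called lower and 14.2% higher. The other 6 ran from −0.55 (EIF4A1) to 0.87 (EIF4G3), and the median of the role, 0.22, was above that of all genes. EIF4A1, the helicase whose locus the study also probed for MYC binding, lies on chromosome 17 from 7572824 to 7579006. It was at 1071 and 1180 FPKM against 724 and 814 FPKM, a log2 fold change of −0.55 (limma adjusted p = 0.0266) that turned to 0.13 in TPM. Small RNA genes lie within EIF4A1, EIF4A2 and 12 other members, and the sources used here do not say whether reads were assigned by strand.

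EIF4E, the cap-binding protein, was at 38.5 and 29.4 FPKM against 55.15 and 57.03 FPKM, a log2 fold change of 0.74 (limma adjusted p = 0.00672). EIF4G3, a second eIF4G scaffold, was at 14.5 and 13.7 FPKM against 25.3 and 26.4 FPKM, with the largest difference of any member that was not called, 0.87 (limma adjusted p = 0.000969). EIF4B and EIF4H, which help the helicase, were each above both wild-type values in both knockout libraries but were not called, with log2 fold changes of 0.46 and 0.32. The relatives and inhibitors of the cap factors included 2 called falls. EIF4EBP1, which blocks eIF4E until mTOR phosphorylates it, was at 217 and 291 FPKM against 71.0 and 79.1 FPKM. It fell by 1.75 on the log2 scale (standard error 0.17, limma adjusted p = 0.000693), to 29.5% of the wild-type mean. EIF4E2, a cap-binding relative that represses translation, was at 86.1 and 116 FPKM against 42.7 and 47.2 FPKM, and it fell by 1.16 (standard error 0.17, limma adjusted p = 0.00199). EIF4EBP2, the other inhibitor of the same kind, was at 11.2 and 11.7 FPKM against 18.1 and 18.7 FPKM, a log2 fold change of 0.68 (limma adjusted p = 0.00203). EIF4G2, a relative of the scaffold that cannot bind eIF4E, was at 261 and 186 FPKM against 342 and 357 FPKM (0.67, limma adjusted p = 0.0217). EIF4A3, the helicase of the exon junction complex, had a log2 fold change of −0.49 (limma adjusted p = 0.0471).

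Within-library ratios of related genes separated the groups in all 5 pairs examined, but separation is common with 2 libraries on each side. Of all tested genes taken singly, 45.9% had both knockout values below both wild-type values and 40.1% had them above. The share over other pairs of genes was not computed. The ratio of EIF4EBP1 to EIF4EBP2 was 19.5 and 24.9 in wild-type and 3.93 and 4.23 in knockout libraries. EIF4G1 to EIF4G3 went from 21.0 and 25.1 to 5.788 and 6.0005. EIF4E to EIF4E2 went from 0.447 and 0.252 to 1.29 and 1.21, so the cap-binding activator was below its repressive relative in wild-type libraries and above it in knockout libraries. EIF4A1 to EIF4A2 went from 7.34 and 8.40 to 4.75 and 5.12, and EIF1 to EIF1B from 9.20 and 9.25 to 6.78 and 7.86. No test of these ratios was run, and with 2 libraries on each side the smallest p of an exact permutation would be 0.33. The genes of a pair can differ in length: the canonical transcripts of EIF4EBP1 and EIF4EBP2 have 827 and 7491 nt, whereas those of EIF4G1 and EIF4G3 have 5405 and 6397 nt. After the loess correction the log2 ratio changes were −0.70 for EIF4EBP1 to EIF4EBP2 (−2.43 before it), −1.36 for EIF4G1 to EIF4G3 (−1.96) and 1.03 for EIF4E to EIF4E2 (1.90). They were −0.38 for EIF4A1 to EIF4A2 (−0.67) and −0.56 for EIF1 to EIF1B (−0.34).

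**Figure D4:**
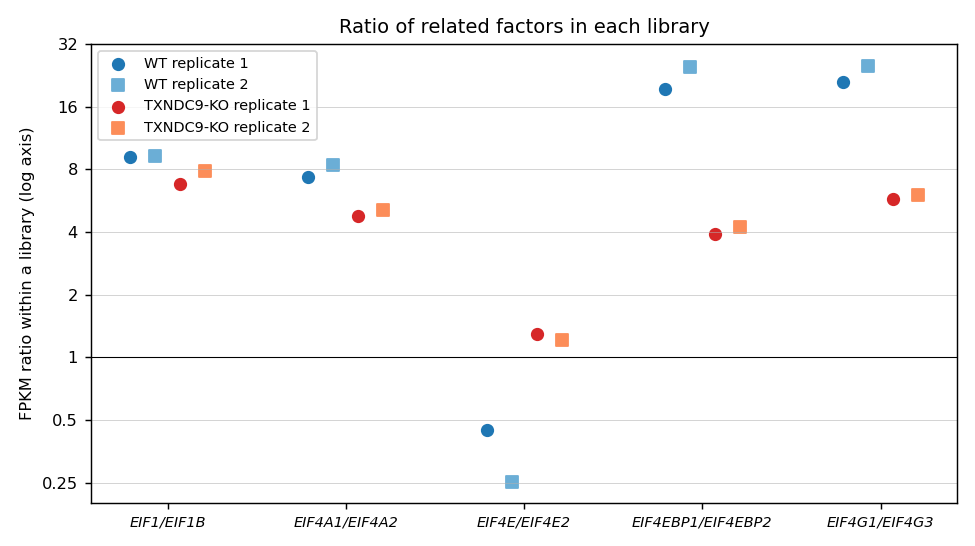
FPKM ratio of the first to the second gene of 5 related pairs in each library, on a log axis. The knockout ratios lie below the wild-type ratios in 4 pairs and above them for EIF4E/EIF4E2, which crosses 1.

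The remaining roles were small. EIF5A, the hypusine-containing factor that helps the ribosome through difficult peptide bonds, was at 1765 and 2099 FPKM against 910 and 967 FPKM. It fell by 1.04 on the log2 scale (standard error 0.18, limma adjusted p = 0.00391). EIF6, which keeps immature large subunits from joining, was at 232 and 324 FPKM against 119 and 125 FPKM, and it fell by 1.17 (standard error 0.18, limma adjusted p = 0.00258). Of the termination factors, ETF1, which reads stop codons, was at 64.2 and 61.8 FPKM against 93.6 and 101 FPKM (log2 fold change 0.62, limma adjusted p = 0.00335). Its GTPase partner GSPT1 was at 153 and 153 FPKM against 136 and 147 FPKM (−0.11, with a 95% interval from −0.39 to 0.16). Neither termination factor was called.

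Transcript length and GC content moved with these differences. Over the 49 members, Spearman's correlation of the log2 fold change was 0.565 with canonical transcript length and −0.532 with GC content, and across 13112 genes with a length the values were 0.495 and −0.462. Genes are not independent replicates, and all points share the same 4 libraries. The 13 members called lower had a median length of 1264 nt and the 3 called higher one of 5710 nt. The difference between the wild-type replicates, replicate 2 minus replicate 1, also followed length over the members (rho = −0.657), as the knockout replicates did less (rho = −0.268). Replicate 2 was above replicate 1 for 36 members in wild-type and for 44 in knockout libraries. The loess correction left 7 members called lower and 1 higher, against 7.72% and 6.38% of all genes. EEF1B2, EEF1D, EIF3F, EIF3M, EIF4G1 and PABPC1 were called lower with and without it, GSPT1 only with it, and EIF3C was called higher both times. The call of EIF3C was lost with median centring (0.99) and without the trend or the filter. Without wild-type replicate 2 its log2 fold change was 0.84. After the correction EIF5 was at 0.46, EIF3A at 0.37, EIF5A at −0.28 and EIF6 at −0.37, and none of them was called. EIF4EBP1 (−0.84), EIF2B4 (−0.78), EIF3K (−0.76), EIF4E2 (−0.65) and EIF3G (−0.59) were also no longer called. The canonical transcripts of EIF3F (6920 nt) and EIF3M (5047 nt) are long, and the isoforms expressed in these cells were not measured, so the larger corrected falls of EIF3F (−2.01) and EIF3M (−2.20) rest on those lengths. How much of any difference comes from length or GC content was not tested.

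**Figure D5:**
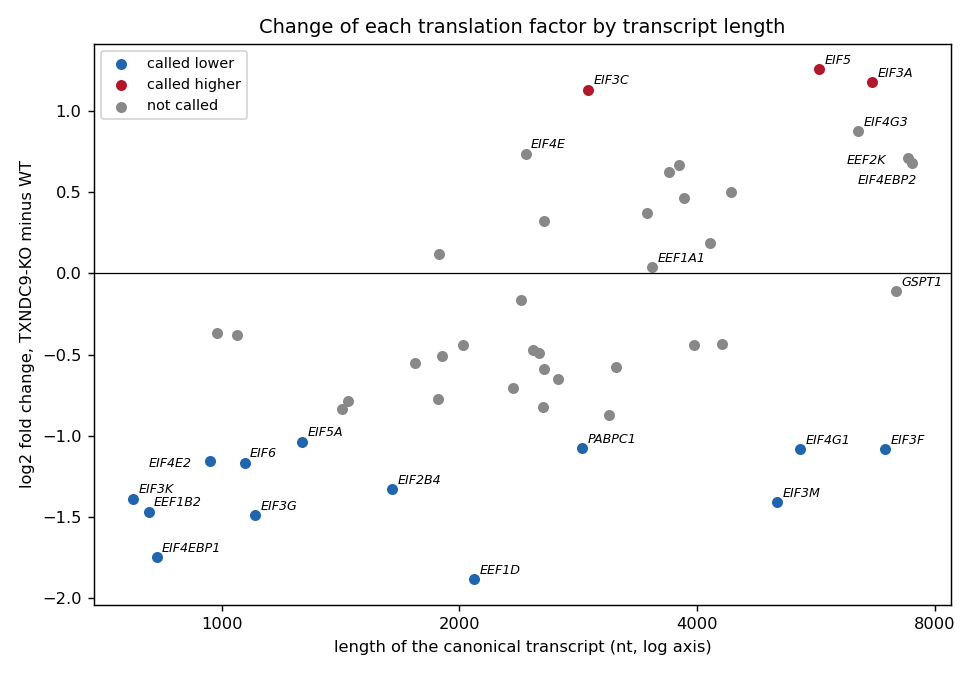
Log2 fold change of each translation factor, knockout minus wild-type, against the length of its canonical transcript on a log axis. Most called falls lie at lengths of 772 to 2861 nt, the called rises EIF5 and EIF3A lie at 5710 and 6659 nt, and EIF4G1, EIF3M and EIF3F are long transcripts that fell.

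Many elongation and initiation factors belong to the TOP mRNAs, whose 5′ terminal oligopyrimidine tract lets mTOR and LARP1 control their translation and stability together with ribosomal proteins. Of 10 members on a list of known TOP mRNAs, EEF1D, EEF1B2, EIF3F and PABPC1 (4) were called lower and 0 higher, against 15.3% and 14.2% of all tested genes and 39.4% and 1.70% of those above 100 FPKM. The median wild-type level of the 10 was 722 FPKM and that of the other members 143 FPKM. Their median was −0.68 on the log2 scale, against −0.47 for the other 39 members, of which 9 were lower and 3 higher. In TPM the medians were 0.00 and 0.21. RefSeq promoter windows (GRCh38.p14, 250 bases before to 50 from the annotated start) were at hand for 40 members and 56 starts. A C followed by at least 4 pyrimidines, on the transcribed strand, began within 10 bases of 42.9% of these starts, against 33.5% of all 35116 starts. It began exactly at 10 starts of the members, or 17.9%, against 4.07% of all starts, a rule added after the sequences were seen. The windows shown run from 15 bases before to 15 bases from those starts, 5′ to 3′ on the strand of the gene, with the pyrimidine tract in capitals, and they are shown because genes with the same kind of start did not move alike.
EEF1A1 (chr6:73521018-73521047, minus strand): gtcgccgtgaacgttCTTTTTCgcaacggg
EEF2 (chr19:3985449-3985478, minus strand): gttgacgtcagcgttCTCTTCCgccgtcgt
EEF1B2 (chr2:206159880-206159909, plus strand): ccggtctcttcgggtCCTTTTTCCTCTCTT
EIF3D (chr22:36529152-36529181, minus strand): gcgcgcgcatgtttcCTCTTTTCCTggttt
EIF3F (chr11:7987322-7987351, plus strand): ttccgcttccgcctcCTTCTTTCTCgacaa
EIF3K (chr19:38619173-38619202, plus strand): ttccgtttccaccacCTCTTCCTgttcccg
EIF3M (chr11:32583816-32583845, plus strand): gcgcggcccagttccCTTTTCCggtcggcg
EIF2S3 (chrX:24054941-24054970, plus strand): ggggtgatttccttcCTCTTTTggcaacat
EIF4A2 (chr3:186783562-186783591, plus strand): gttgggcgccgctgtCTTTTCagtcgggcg
EIF4B (chr12:53006441-53006470, plus strand): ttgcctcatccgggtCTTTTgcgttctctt

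Of these 10 genes, EEF1B2, EIF3F, EIF3K and EIF3M were called lower, while EEF1A1 (0.04), EIF4A2 (0.12), EIF2S3 (0.37) and EIF4B (0.46) had log2 fold changes above 0 that were not called. EIF3D (−0.77) and EEF2 (−0.58) lay between. The median over the 10 was −0.67 and over the 30 other members with a window −0.40, under the rule added after the sequences were seen. Under the rule set beforehand, a tract within 10 bases of the start, the medians were nearly alike. They were −0.47 for the 23 members with a tract and −0.43 for the 17 without. A matching start is a description of the annotated sequence and was not read from these libraries.

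The study asked whether genes bound by MYC follow TXNDC9, and MYC binds the E-box CACGTG, which reads the same on both strands. It was present in 10 of the 56 member windows, or 17.9%, against 7.26% of all windows, and those 10 belong to 10 genes. EIF3F, EIF3K and EIF4G1 among them were called lower. EIF4E, EEF2K, EIF4B and EIF4H had log2 fold changes from 0.32 to 0.74, and EIF1B, EIF2B3 and EIF4A3 from −0.51 to −0.37. The median of the 10 was −0.43, and that of the 30 members whose windows lacked these letters was −0.45. The windows of EIF3B and EIF4A1 had no match. The study did not rest on such letters: it used MYC target gene sets, ENCODE binding data, MYC protein blots and ChIP-qPCR. It also used a proteasome inhibitor, restored MYC expression, co-immunoprecipitation of MYC with TXNDC9, and gene sets in TCGA tumours. By ChIP-qPCR it reports less MYC at target genes in knockout cells. EIF4G1 and EIF4E each had a pair of E-boxes before the start, shown here in capitals in windows of 30 bases because the first gene was called lower and the other was above its wild-type values.
EIF4G1 upstream (chr3:184314450-184314479, plus strand): ggctgtggctgtCACGTGacggggcggggg
EIF4G1 near (chr3:184314527-184314556, plus strand): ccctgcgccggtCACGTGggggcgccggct
EIF4E upstream (chr4:98929341-98929370, minus strand): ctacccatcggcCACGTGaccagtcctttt
EIF4E near (chr4:98929188-98929217, minus strand): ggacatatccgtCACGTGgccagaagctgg

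The E-boxes began 144 and 67 bases before the annotated start in EIF4G1 and 225 and 72 bases before it in EIF4E. A match in these windows does not show that MYC was bound in these cells, and the lack of a match does not show that it was not.

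Other genes of the pathway, 54 on a list of kinases, phosphatase subunits, modifying enzymes and further factors, showed calls in both directions. Of the 53 in the table, 50 were tested, 7 were called lower and 6 higher, where 15.3% and 14.2% of all genes were. Their median was −0.24 on the log2 scale (0.43 in TPM). All 9 tested enzymes and factors of elongation had both knockout values below both wild-type values, as 45.9% of all genes did, with a median of −0.99 (−0.31 in TPM), and 4 were called lower. They include EEF2KMT, a methyltransferase of eEF2, at 28.4 and 39.4 FPKM against 11.6 and 12.5 FPKM (−1.47, limma adjusted p = 0.00104), and EEF1AKMT1, a methyltransferase of eEF1A (−1.37). DOHH, which completes the hypusine of eIF5A, was at 51.8 and 53.4 FPKM against 20.3 and 20.2 FPKM (−1.37, limma adjusted p = 0.000512). The correction took DOHH to −0.37 and the median of these genes to −0.31, while EEF2KMT (−1.13) and EEF1AKMT1 (−1.02) stayed called. In TPM DOHH was at −0.70, EEF2KMT at −0.80 and EEF1AKMT1 at −0.70, and none of them was called.

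Of the 8 eIF2 kinases, phosphatase subunits and partners, 3 were called higher and 0 lower, against 14.2% and 15.3% of all tested genes. EIF2AK3, the ER stress kinase PERK, was at 3.62 and 2.86 FPKM against 8.60 and 10.8 FPKM, a rise of 1.55 (limma adjusted p = 0.00102). EIF2AK2, the kinase activated by double-stranded RNA, rose by 1.44 and PPP1R15B, which directs dephosphorylation of eIF2 alpha, by 1.27. After the loess correction EIF2AK3 stayed past the threshold at 1.03 (not when the replicate block was added), whereas EIF2AK2 was at 0.30 and PPP1R15B at 0.62 and neither was called. DDX3X, an X-linked helicase for structured leaders, rose by 1.38, from 94.97 and 79.76 FPKM to 218.99 and 233.10 FPKM. DDX3X was at 0.73 after the correction and was no longer called. In the mTOR list, TSC2 and MLST8 were called lower and LARP1 higher, of which the correction left the call of TSC2 (−1.27) but not those of MLST8 (−0.24) and LARP1 (0.72), while MTOR and RPTOR, at log2 fold changes of 0.23 and 0.22, were not called. EIF5B, the GTPase that joins the subunits, was at 56.6 and 83.6 FPKM against 32.8 and 35.4 FPKM, and it fell by 1.01 (standard error 0.20, limma adjusted p = 0.00557), just past 2-fold. The call was lost with a pseudocount of 1 (−0.99), in TPM (−0.33), without the trend or the filter, without wild-type replicate 2 (−0.73) and without either knockout library, and the loess correction gave −1.87. EIF5B lies on the plus strand of chromosome 2 from 99337371 to 99401326 and shares 3332 bases with TXNDC9 on the minus strand, so reads of the targeted gene and of EIF5B cannot be told apart there without strand.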

How the data were processed

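RNA-seq libraries of wild-type (2) and TXNDC9 knockout (2) cells labelled HepG2 were analysed. The authors mapped reads to hg38 with TopHat2 and an Ensembl annotation and ran Cuffdiff, and what they deposited is 1 FPKM value for each gene in each library, beside group averages. Tool versions, library normalization and strand use are not given in the sources used here. The deposited table also holds the authors' fold changes, p-values and q-values, which were not used. Its 57979 identifiers, each repeated 4 times, stood out of register with the symbols and were put back in order, after which the symbol matched GENCODE release 44 for 49 of 49 members.

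Genes with a mean above 1 FPKM were compared on log2(FPKM + 0.1), which understates changes of low genes, with limma 3.58.1 in R 4.3.3 (trend, no replicate block, all 4 libraries, two-sided). Benjamini-Hochberg adjustment covered 13246 genes, and a call needed an adjusted p under 0.01 and 2-fold. Canonical transcript length and GC content came from GENCODE (loess span 0.3). The steps were run on simulated data with planted changes larger than that of any member, so that run does not measure how they perform at the sizes seen here. Members, roles and lists were chosen with earlier results of these data known. Of the members, values of each library are given for the 2 largest called falls and rises of each role, EIF3B, EIF4A1, the fixed pairs and the largest differences not called, and any other was chosen after its values were seen. Of the other pathway genes the 3 largest called falls and rises and EIF5B were to be named, and the others were chosen after their values were seen. The sequences are from RefSeq (GRCh38.p14), where EIF2S2, EIF3A, EIF3E, EIF3G, EIF3H, EIF3L, PABPC1, EIF4EBP1 and EEF1D had no window used here. Alternatives were other pseudocounts, filters, thresholds and scalings, no trend, the replicate block, the length and GC correction and leaving out each library. Python 3.11.15, pandas 2.3.3, numpy 2.4.6 and matplotlib 3.10.9 were used.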

Additional observations from a re-analysis of the deposited data

How the results depend on the processing

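The 13 falls and 3 rises called among the members depended on scale and on the libraries. In TPM 2 were lower and 13 higher, and the median log2 fold change went from −0.49 to 0.19. With the length and GC correction, alone or with the replicate block, 7 were lower and 1 higher, and the median was −0.37. Median centring gave a median of −0.63. Without a minimum fold change 21 were lower and 8 higher, and without a filter 9 were lower and 1 higher. Leaving out single libraries gave 0 to 13 lower and 0 to 3 higher. Both counts were 0 without knockout replicate 1 or without knockout replicate 2, and they were 7 and 1 without wild-type replicate 2. Each of these fits has 1 residual degree of freedom and assumes that the lone library varies like the other group. TXNDC9 turned from −0.55 to 0.12 in TPM. All 16 called members kept their direction after the correction. They also kept it with each library left out, which was bound to happen because their groups do not overlap.

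Some members that were not called changed sign. In TPM these were EIF1B (0.31), EIF2B1 (0.51), EIF2B2 (0.25), EIF2B3 (0.17), EIF2B5 (0.092), EIF3E (0.24), EIF3H (0.24), EIF3J (0.21), EIF3L (0.032), EIF4A1 (0.13), EIF4A3 (0.19), EEF1E1 (0.30), EEF2 (0.10) and GSPT1 (0.57), all through the same shift of about 0.67. After the correction, alone or with the replicate block, they were EIF1AX (−0.29), EIF2S1 (−0.45), EIF2S3 (−0.027), EIF4EBP2 (−0.13) and EEF1A1 (−0.34), and with median centring EIF4A2 (−0.022) and EEF1A1 (−0.11). With median centring every gene moved by the same amount, as the median of all tested genes went from −0.09 to −0.23. The cause of the changes after the length and GC correction was not tested.

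With the replicate block, 13 members were lower and 3 higher, and no call of a named gene changed. The deviations of same-numbered libraries correlated at −0.0904, so the numbers were not taken to pair them, although replicate 2 was above replicate 1 for 36 members in wild-type and for 44 in knockout libraries. Because the files hold no counts, depth sets no interval here, and with 2 libraries a group no outlying library could be tested for.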
